A study of Mus musculus with 4 samples.

Results

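Polycomb repressive complex 2 (PRC2) is the enzyme complex that methylates lysine 27 of histone H3, a chromatin mark of silenced developmental genes. Its core holds a methyltransferase, EZH2 or EZH1, together with EED, which binds the methylated lysine, SUZ12, the scaffold of the complex, and a histone-binding protein, RBBP4 or RBBP7. Accessory subunits guide the complex to CpG-rich DNA: MTF2 and PHF19 belong to the Polycomb-like proteins of one form of the complex, and JARID2 and AEBP2 mark the other. In mouse embryonic stem cells PRC2 covers the promoters of lineage genes, and PRDM14, a zinc finger protein that protects naive pluripotency, has been described as a partner of the complex.

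The genes examined here were the 10 subunit genes Suz12, Eed, Ezh1, Ezh2, Jarid2, Mtf2, Phf19, Aebp2, Rbbp4 and Rbbp7, chosen by name out of 22180 genes with a value of their own. They were represented by 12 of the 41345 probe sets of the array: 1 probe set for each gene except Rbbp4, which had 2 of its own and 1 shared with Sync. Suz12 had 1 probe set, which alone gave all its values. The 10 genes lie on 8 chromosomes, with Suz12 and Ezh1 both on chromosome 11.

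The samples were total RNA of mouse embryonic stem cells that all lacked Prdm14 and were grown in 2i and LIF on a layer of STO fibroblasts. One culture carried the empty vector and the others expressed mouse PRDM14, the PRDM14 of sea urchin, or PRDM14 and CBFA2T, both of sea urchin, where CBFA2T belongs to a co-repressor family. The array of the last group is called the CBFA2T array, and its cells are described as having CBFA2T added. Each of the 4 groups had 1 array, so no value has a replicate error, no test was possible, and the precision is limited by the number of arrays. The sources used here do not give the promoter of the vectors, the number of clones or the share of feeder RNA. All values are RMA values on a log2 scale, where a difference of 1 is 2-fold.

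In place of a replicate error, each difference is set beside the differences of all 12042 genes that were at or above 4.84, the median of the probe sets with 1 gene, on at least 1 array. The central 95% of these differences ran from -0.31 to 0.31 for mouse PRDM14 against the empty vector, from -0.29 to 0.34 for sea urchin PRDM14, and from -0.32 to 0.37 for sea urchin PRDM14 and CBFA2T. All 10 subunit genes passed that filter. Comparisons against the empty vector share its array, so a chance value of that array enters each of them.

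The library labels could not be checked on the deleted gene: Prdm14 was at 5.71 with the empty vector, 5.57 with mouse PRDM14, 5.77 with sea urchin PRDM14 and 5.53 on the CBFA2T array, and the sources used here do not say where its probes lie. Each group name means the array labelled with it. All 15 embryonic stem cell markers listed passed the filter, with values between 4.93 and 9.28. Of the 20 fibroblast markers, 13 passed, with a mean of 6.12 on the empty vector array, 6.13 with mouse PRDM14, 6.11 with sea urchin PRDM14 and 6.03 on the CBFA2T array. The 20 measured markers of the 2-cell-like state had a median difference from the empty vector of 0.003 with mouse PRDM14, -0.04 with sea urchin PRDM14 and 0.58 on the CBFA2T array. Of these, 13 passed the filter, 6 of them through the CBFA2T array alone, so the values given for this list are over all 20. Bulk arrays cannot tell fewer cells of a type from less RNA per cell.

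The promoters of 3 subunit genes are shown, chosen by their values, and they do not stand for all patterns among the members. Suz12 was the member that differed most and Ezh2 the member that varied least. Phf19 was furthest below the empty vector on both sea urchin arrays, but passed the filter through the empty vector array alone. Each promoter is the 250 bases before the gene's start in RefSeq's annotation of GRCm38.p6, at chr11:79992856-79993105 on the plus strand for Suz12, chr2:34913977-34914226 on the minus strand for Phf19 and chr6:47595031-47595280 on the minus strand for Ezh2. Capitals mark the E2F element TTTCCCGC on either strand, a binding sequence of the cell cycle factors that are known to control several PRC2 genes.
Suz12: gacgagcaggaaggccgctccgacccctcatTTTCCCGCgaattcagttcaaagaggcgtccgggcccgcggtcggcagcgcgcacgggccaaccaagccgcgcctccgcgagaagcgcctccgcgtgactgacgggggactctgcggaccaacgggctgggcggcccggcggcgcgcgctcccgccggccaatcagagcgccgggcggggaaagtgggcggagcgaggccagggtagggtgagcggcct
Phf19: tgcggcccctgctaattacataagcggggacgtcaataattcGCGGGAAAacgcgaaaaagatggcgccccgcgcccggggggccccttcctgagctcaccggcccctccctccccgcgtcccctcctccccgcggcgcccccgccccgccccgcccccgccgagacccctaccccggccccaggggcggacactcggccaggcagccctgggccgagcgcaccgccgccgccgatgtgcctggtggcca
Ezh2: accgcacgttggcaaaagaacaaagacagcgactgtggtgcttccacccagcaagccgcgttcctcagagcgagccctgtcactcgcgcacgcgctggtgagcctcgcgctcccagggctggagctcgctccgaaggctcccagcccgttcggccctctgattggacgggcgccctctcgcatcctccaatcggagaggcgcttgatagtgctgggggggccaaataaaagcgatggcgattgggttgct

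All 10 genes matched the promoter table, with 14 start sites in all. The element TTTCCCGC was in the windows of Suz12 and Phf19, its first base 219 and 208 bases before the start, and in 0.895% of all 32851 windows of that length, searched on both strands. A second E2F element, TTTGGCGC, was in 0 of the 14 windows and in 0.417% of all. The GC box GGGCGG was in 9 of the 14 windows, which belong to 7 of the genes, and in 32.7% of all windows. The letters GGTCTCTAA, by which the PRDM14 motif is usually given, were in 0 of the 14 windows and in 0.240% of all, which says only that these letters are not in these windows. The Suz12 window held 37 CpG dinucleotides, more than 97.8% of all windows, the Phf19 window 31 and the Ezh2 window 23, against a median of 6. Most windows of the subunit genes were above that median. The shares over all windows are thus not a like background for GC-rich letters such as TTTCCCGC and GGGCGG. Whether these elements are more frequent than in other CpG-rich promoters was not tested.

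Suz12 was the subunit gene that separated the arrays. Its value was 5.87 on the array labelled mouse PRDM14, 6.19 with the empty vector, 6.96 with sea urchin PRDM14 and 7.19 with sea urchin PRDM14 and CBFA2T. Both sea urchin arrays were thus above both of the others, and the lower of the 2 sea urchin values exceeded the empty vector value, the higher of the others, by 0.77. Of the 12042 genes, 20.6% had such a gap above 0, and that of Suz12 ranked 2 from the top, behind the zinc finger gene Zfp981 (1.11).

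Against the empty vector, Suz12 was higher by 0.77 with sea urchin PRDM14, which is 1.71-fold, and by 1.01 with CBFA2T added, which is 2.01-fold. The first of these ranked 9 among the 12042 genes, short of 2-fold. The second was just past 2-fold and ranked 19. In that comparison 0.158% of all genes were at least 2-fold higher, and 1 of the 10 subunit genes was. With sea urchin PRDM14 alone, 0.0332% of all genes and 0 subunit genes were. At 1.5-fold, 0.340% of genes were higher with sea urchin PRDM14 and 0.515% on the CBFA2T array, and Suz12 was the 1 subunit gene in each. These ranks describe single arrays and carry no test.

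On the array labelled mouse PRDM14, Suz12 went the other way, with a difference of -0.319 from the empty vector. That value lay just outside the central 95% of all genes, whose lower end was -0.311, and 2.21% of genes were lower still. Set directly against mouse PRDM14, Suz12 was higher by 1.09 (2.13-fold) with sea urchin PRDM14 and by 1.33 (2.51-fold) with CBFA2T added. It ranked 5 and 11 among all genes there, where 0.0498% and 0.125% of genes were at least 2-fold higher. Between the 2 sea urchin arrays Suz12 differed by 0.24, inside the central 95% of genes (-0.31 to 0.30), so these neighbours in the order of its levels were not set apart by that yardstick. At 2-fold, 0 subunit genes differed there and 0.183% of all genes did; for mouse PRDM14 against the empty vector these were 0 and 0.0830%.

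**Figure D1:**
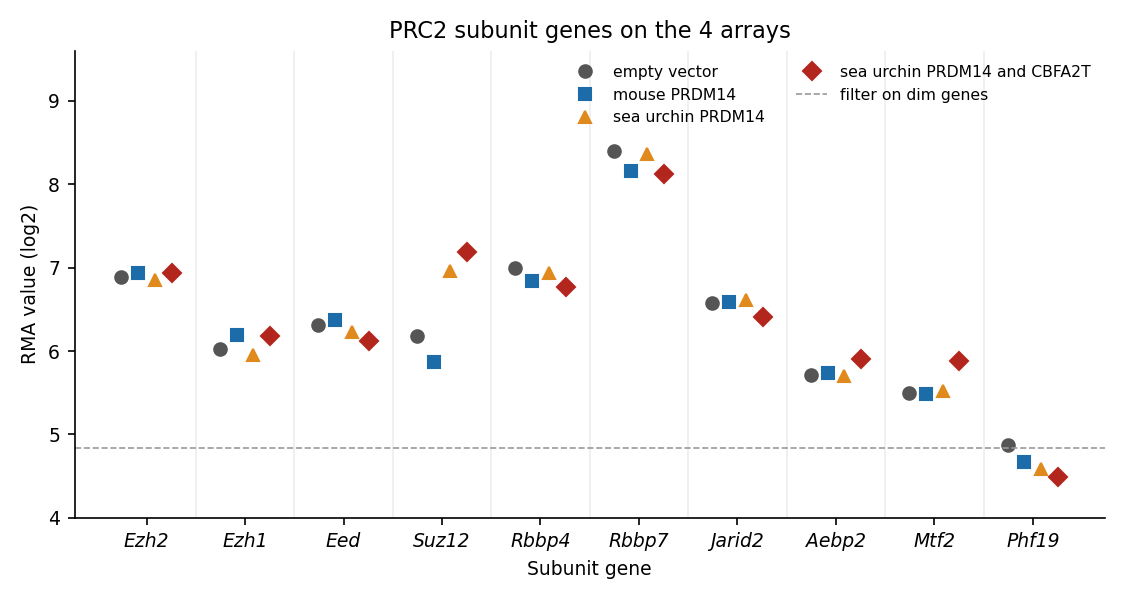
RMA values (log2) of the 10 PRC2 subunit genes, 1 symbol for each of the 4 arrays; the dashed line is the filter value of 4.84. Suz12 lies at 5.87 and 6.19 on the arrays without the sea urchin protein and at 6.96 and 7.19 with it, while the symbols of Ezh2 almost coincide; heights of different genes come from different probes and are not compared.

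The 2 methyltransferase genes showed no such split. Ezh2, the main catalytic subunit of dividing cells, was at 6.89 with the empty vector, 6.94 with mouse PRDM14, 6.85 with sea urchin PRDM14 and 6.94 on the CBFA2T array. Its range over the arrays was 0.086, and 9.54% of genes had a smaller one. Ezh1, the catalytic subunit better known from resting cells, was at 6.02 with the empty vector, 6.19 with mouse PRDM14, 5.95 with sea urchin PRDM14 and 6.18 on the CBFA2T array. The array with sea urchin PRDM14 alone was thus the lowest for both genes, by 0.24 for Ezh1 and by 0.086 for Ezh2 against the CBFA2T array. Ezh1 lies on the same chromosome as Suz12 and did not share its order of arrays.

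Eed, the subunit that reads the methylated lysine, was at 6.31 with the empty vector, 6.37 with mouse PRDM14, 6.22 with sea urchin PRDM14 and 6.12 on the CBFA2T array. Both sea urchin arrays were below both of the others, the opposite order to that of Suz12, but the gap was 0.085. Of all genes, 16.6% had the sea urchin pair below the other pair. The difference of Eed from the empty vector was -0.18 with CBFA2T added, where 10.4% of genes were lower.

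Rbbp4 and Rbbp7 encode near-identical histone-binding proteins that also serve in histone deacetylase and nucleosome assembly complexes. Rbbp7 was at 8.40 with the empty vector, 8.16 with mouse PRDM14, 8.36 with sea urchin PRDM14 and 8.12 on the CBFA2T array. Its brighter own probe set put Rbbp4 at 7.00, 6.84, 6.93 and 6.77 on the same arrays. Both genes were thus lower on the mouse PRDM14 and the CBFA2T arrays than on the other 2, with differences from the empty vector of -0.24 and -0.28 for Rbbp7 and of -0.15 and -0.23 for Rbbp4, all inside the central 95% of genes. For Rbbp4 this rests on the probe set used. The other own probe set was dim, at 3.05 with the empty vector, 3.16 with mouse PRDM14, 3.28 with sea urchin PRDM14 and 3.23 on the CBFA2T array. The probe set shared with Sync ran from 5.90 to 6.01, highest with CBFA2T added. With the mean of both own probe sets, the Rbbp4 difference with CBFA2T added was -0.02.

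Among the accessory subunits, Mtf2 differed on 1 array. It was at 5.50 with the empty vector, 5.49 with mouse PRDM14, 5.52 with sea urchin PRDM14 and 5.88 on the CBFA2T array. The CBFA2T array was higher by 0.38 than the empty vector array, with 2.24% of genes higher still, and by 0.35 than the array with sea urchin PRDM14 alone, with 1.29% higher still. These differences lay outside the central 95% of genes and short of 1.5-fold. Of the 20 measured 2-cell-like markers, 17 were above the empty vector on the same array and 6 were at least 2-fold higher. Of all genes past the filter, 51.6% and 0.158% were. With mouse PRDM14 and with sea urchin PRDM14 alone, 10 and 8 of the markers were above it, beside 48.4% and 51.6% of those genes. The part of these markers in the differences of Mtf2 and Suz12 was not tested.

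Phf19, the other Polycomb-like gene, was dim. It was at 4.88 with the empty vector, 4.67 with mouse PRDM14, 4.59 with sea urchin PRDM14 and 4.49 on the CBFA2T array, so it passed the filter through the empty vector array alone. Its differences from the empty vector were -0.29 with sea urchin PRDM14 and -0.39 on the CBFA2T array, where 2.37% and 1.27% of genes were lower still. A gene that passes through 1 array had to be lower on the others, so these differences do not set it apart.

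Aebp2, a zinc finger subunit, was at 5.71 with the empty vector, 5.74 with mouse PRDM14, 5.70 with sea urchin PRDM14 and 5.90 on the CBFA2T array. Jarid2, a Jumonji family protein of the same form of the complex, was at 6.58, 6.58, 6.62 and 6.40 on those arrays. For both, the CBFA2T array was the extreme one, above the other 3 for Aebp2 and below them for Jarid2. Their ranges over the arrays were ordinary, with 53.2% and 57.1% of genes having a smaller one. The differences from the empty vector there, 0.19 and -0.18, lay inside the central 95% of genes.

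The median difference of the 10 genes from the empty vector was -0.003 with mouse PRDM14, -0.03 with sea urchin PRDM14 and -0.06 on the CBFA2T array, beside -0.005, 0.006 and 0.005 for all genes. Of the 10, 5, 3 and 5 were above 0 in that order, beside 48.4%, 51.6% and 51.6% of all genes. Without Suz12, the median of the other 9 was 0.004, -0.04 and -0.18 in the same order, furthest from 0 on the CBFA2T array. The -0.18 includes Rbbp4 at -0.23, which was -0.02 with the mean of its own probe sets. With the mean of probe sets, the median of all 10 there was 0.02 in place of -0.06. Phf19, which passed the filter through the empty vector array alone, is also included. The -0.18 thus does not show a shift of the rest of the complex. The 9 genes ranged from -0.24 to 0.16 with mouse PRDM14, from -0.29 to 0.04 with sea urchin PRDM14 and from -0.39 to 0.38 with CBFA2T added. The spread of the 9 was thus widest on the CBFA2T array, where Mtf2, Aebp2, Ezh1 and Ezh2 were above 0 and Phf19, Rbbp7, Rbbp4, Eed and Jarid2 below.

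**Figure D2:**
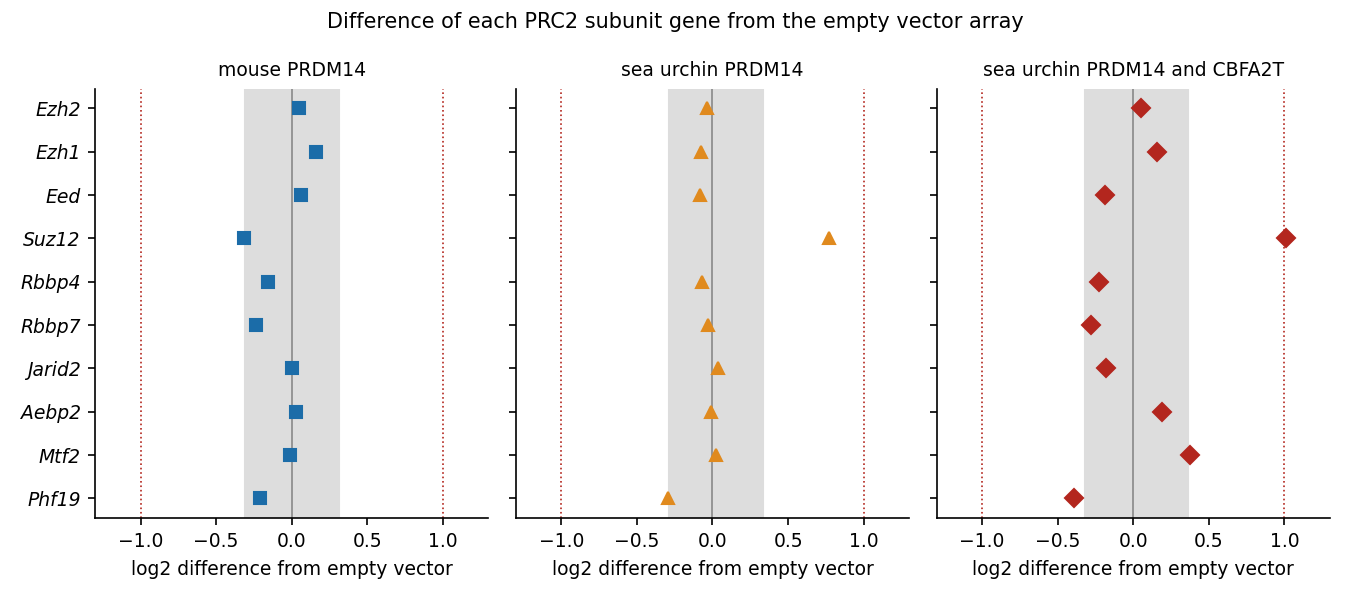
Log2 difference of each subunit gene from the empty vector array (horizontal axis), 1 panel for each of the 3 other arrays; the grey band holds the central 95% of all genes past the filter and the dotted lines mark 2-fold. Suz12 lies at 0.77 and 1.01 in the sea urchin panels, to the right of the band, and at -0.32 with mouse PRDM14; Mtf2 at 0.38 and Phf19 at -0.39 lie just outside the band with CBFA2T added.

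**Figure D3:**
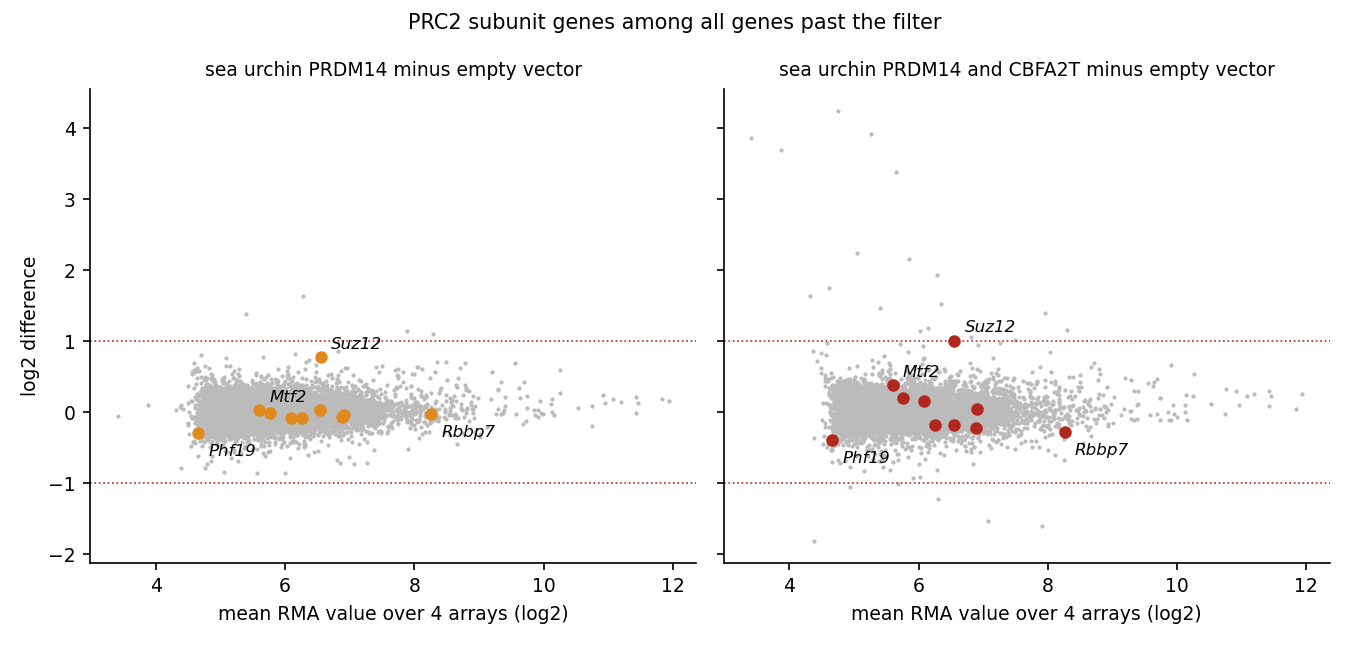
Log2 difference from the empty vector (vertical axis) against the mean RMA value over the 4 arrays (log2, horizontal axis) for 12042 genes in grey and the 10 subunit genes in colour, for sea urchin PRDM14 (left) and with CBFA2T added (right). Suz12, with a mean of 6.55, lies above the main cloud in both panels, and the other 9 subunit genes lie within or at the edge of it.

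Suz12 lies on chromosome 11, whose genes lay higher than those of other chromosomes on both sea urchin arrays. Over 1069 genes of the chromosome past the filter, the median difference from the empty vector was 0.057 with sea urchin PRDM14 and 0.065 on the CBFA2T array, against 0.0014 and 0.0006 for the genes of other chromosomes. With mouse PRDM14 the medians were -0.004 and -0.005. The chromosome held 8.88% of the genes tested, but 11 of the 41 genes at least 1.5-fold higher with sea urchin PRDM14 (26.8%) and 20 of the 62 on the CBFA2T array (32.3%), Suz12 among them in both. With mouse PRDM14 it held 5 of 35 (14.3%). Less the median of its chromosome, Suz12 was higher by 0.71 with sea urchin PRDM14 and by 0.94 on the CBFA2T array, the second then below 2-fold. Among the genes of the chromosome it ranked 3 and 5. The part of the chromosome's shift in the Suz12 difference was not tested.

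The nearest genes past the filter on both sides had the order of arrays of Suz12, lowest with mouse PRDM14, then the empty vector, sea urchin PRDM14 and the CBFA2T array. That order was found in 3 of the 10 nearest genes, the third being Rhot1, in 11.1% of the genes of chromosome 11 and in 5.72% of all genes. Utp6, which encodes a factor of ribosome assembly, was at 5.66 with the empty vector, 5.46 with mouse PRDM14, 6.0 with sea urchin PRDM14 and 6.14 on the CBFA2T array. Its differences from the empty vector, -0.19, 0.34 and 0.48, were smaller than those of Suz12 and of the same sign. On the other side Crlf3, a cytokine receptor-like factor gene, was at 5.39, 5.22, 5.48 and 5.52 on those arrays, with differences of -0.17, 0.09 and 0.13. Of the 5 nearest genes past the filter on each side, which also included the Ras regulator gene Nf1 (0.04, 0.16 and 0.17) and the spindle factor gene Zfp207 (0.19, 0.07 and 0.31), 7 of 10 were above the empty vector with sea urchin PRDM14 and 8 of 10 with CBFA2T added, beside 63.9% and 66.1% of all genes of the chromosome. Their medians were 0.08 and 0.15, and their highest values were those of Utp6. The remaining neighbours were Wsb1, Rab11fip4, Adap2, Rnf135 and Rhot1, with differences between -0.13 and 0.19, and Rab11fip4os2, an opposite-strand gene at Rab11fip4, at -0.31 with CBFA2T added.

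**Figure D4:**
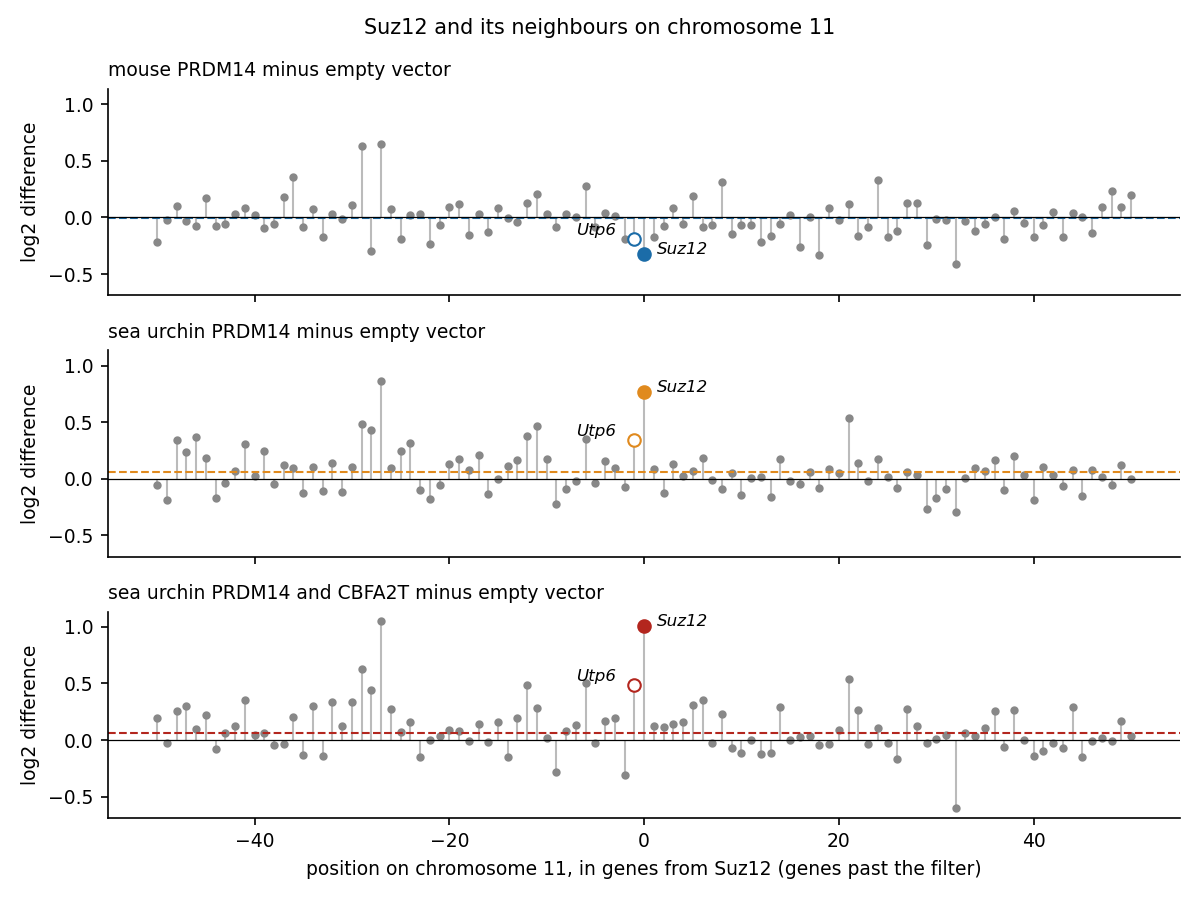
Log2 difference from the empty vector (vertical axis) for Suz12, Utp6 and the 50 genes past the filter on each side of Suz12 on chromosome 11, in the order of the annotation (horizontal axis, in genes), for the 3 other arrays; dashed lines mark the median of the chromosome. Suz12 at 0.77 and 1.01 and Utp6 at 0.34 and 0.48 stand above most of their neighbours in the sea urchin panels, and both are below 0 with mouse PRDM14.

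The genes whose pattern over the 4 arrays was most like that of Suz12 were found by the Euclidean distance of their log2 values, each less its own mean. The nearest 5 were Zfp640 (distance 0.47), Rnft1 (0.47), Zfp981 (0.49), Rpl23a (0.49) and Utp18 (0.52). Zfp640 and Zfp981 encode zinc finger proteins, and their differences from the empty vector were 0.65 and 1.38 with sea urchin PRDM14 and 1.01 and 1.46 with CBFA2T added. Rnft1, Rpl23a and Utp18 lie on chromosome 11. Rnft1, a RING finger gene, differed by 0.49 and 0.65 on those arrays. Rpl23a, a ribosomal protein gene with many near-identical copies whose signal could be shared, differed by 0.43 and 0.44. Utp18, a gene of ribosome assembly, differed by 0.39 and 0.53. Of the nearest 20 genes, 14 lie on chromosome 11, and Utp6 was number 11 of the 20. The chromosome holds 8.88% of all genes tested, but that share is not a like background for genes chosen by the pattern of Suz12. Of the genes at least 1.5-fold higher than the empty vector, it held 26.8% with sea urchin PRDM14 and 32.3% on the CBFA2T array. The count of 14 is thus not separate from the shift of the chromosome given above. The chromosome was counted after the nearest 20 genes had been seen. The nearest subunit gene, Mtf2, had a distance of 0.87, and 470 genes were nearer; for Eed and Phf19, 11289 and 11647 were.

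The genes around PRC2 were taken from fixed lists. Of 7 other partners of PRC2, 3 passed the filter, and 0 were 2-fold apart on any array from the empty vector. Few genes of any kind were: 0.0830% of all genes with mouse PRDM14, 0.0332% with sea urchin PRDM14 and 0.208% on the CBFA2T array, so that a count of 0 in this list and those that follow does not set them apart. Epop, a partner of the Polycomb-like form that also lies on chromosome 11, was at 7.29 with the empty vector, 7.22 with mouse PRDM14, 7.22 with sea urchin PRDM14 and 7.77 on the CBFA2T array. It was thus higher on the CBFA2T array alone, by 0.48 against the empty vector and 0.55 against sea urchin PRDM14, the array on which Mtf2 was highest. Elob, which encodes elongin B, differed by -0.18 with sea urchin PRDM14. Among all 7 partners, Phf1 differed most with mouse PRDM14 (0.57) and with sea urchin PRDM14 (0.58), both short of 1.5-fold. It was too dim to pass the filter, at 4.16 with the empty vector, 4.72 with mouse PRDM14, 4.74 with sea urchin PRDM14 and 4.39 on the CBFA2T array.

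Polycomb repressive complex 1 (PRC1) ubiquitinates histone H2A and binds the mark that PRC2 makes. Of its 28 listed genes, 24 were measured on their own and 18 passed the filter; 0 were 2-fold apart from the empty vector, where at most 0.208% of all genes were. Their medians were 0.002 with mouse PRDM14, 0.06 with sea urchin PRDM14 and 0.03 on the CBFA2T array, with 9, 12 and 12 of 18 above 0, beside 48.4%, 51.6% and 51.6% of all genes. Yaf2, an adaptor of variant PRC1, differed by -0.59 with mouse PRDM14 and -0.32 with sea urchin PRDM14; at 4.96 with the empty vector it passed the filter through that array alone, and it was the 1 gene of the list past 1.5-fold against the empty vector, as 0.457% of all genes were with mouse PRDM14. Usp7, a deubiquitinase found with variant PRC1, differed by 0.44 with CBFA2T added.

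Among the genes of enzymes that oppose Polycomb marks and of their partner subunits, 0 of the 16 past the filter were 2-fold apart from the empty vector, again beside at most 0.208% of all genes. Of 8 listed genes of lysine 27 demethylases, H2A deubiquitinases and their partners, 7 passed the filter. Their medians were 0.07, 0.003 and 0.17 for mouse PRDM14, sea urchin PRDM14 and CBFA2T added. The last includes 1 gene that passed through the CBFA2T array alone. Over all 8 measured genes the medians were 0.06, 0.02 and 0.16 in that order. Kdm6a, an X-linked demethylase gene, had the largest difference on each of these arrays, 0.24, 0.18 and 0.32. Of 12 listed genes of trithorax-type methyltransferase complexes, 9 passed, with medians of 0.01, -0.05 and -0.01. The largest differences were in the complex subunit genes Wdr5 (0.28) and Dpy30 (-0.16) and in the methyltransferase gene Setd1b (0.22).

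The known target genes of Polycomb, a list of 60 lineage regulators such as Hox, Pax and Sox genes, had medians near 0 on all 3 arrays. Of the 54 measured, 36 passed the filter, with medians of -0.02 with mouse PRDM14, 0.002 with sea urchin PRDM14 and -0.03 on the CBFA2T array. In that order 17, 18 and 12 of the 36 were above 0, beside 48.4%, 51.6% and 51.6% of all genes, and 0 were 1.5-fold apart in either direction, where 0.457%, 0.498% and 0.822% of all genes were. The largest differences were those of Olig2 with mouse PRDM14 (-0.42) and of Sox1 with sea urchin PRDM14 (-0.33) and on the CBFA2T array (-0.39), both genes of the neural lineage and both dim, between 4.31 and 5.24. Olig2 passed the filter through the array with sea urchin PRDM14 alone. Its values with the empty vector (4.73) and with mouse PRDM14 (4.31) were both below the filter.

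**Figure D5:**
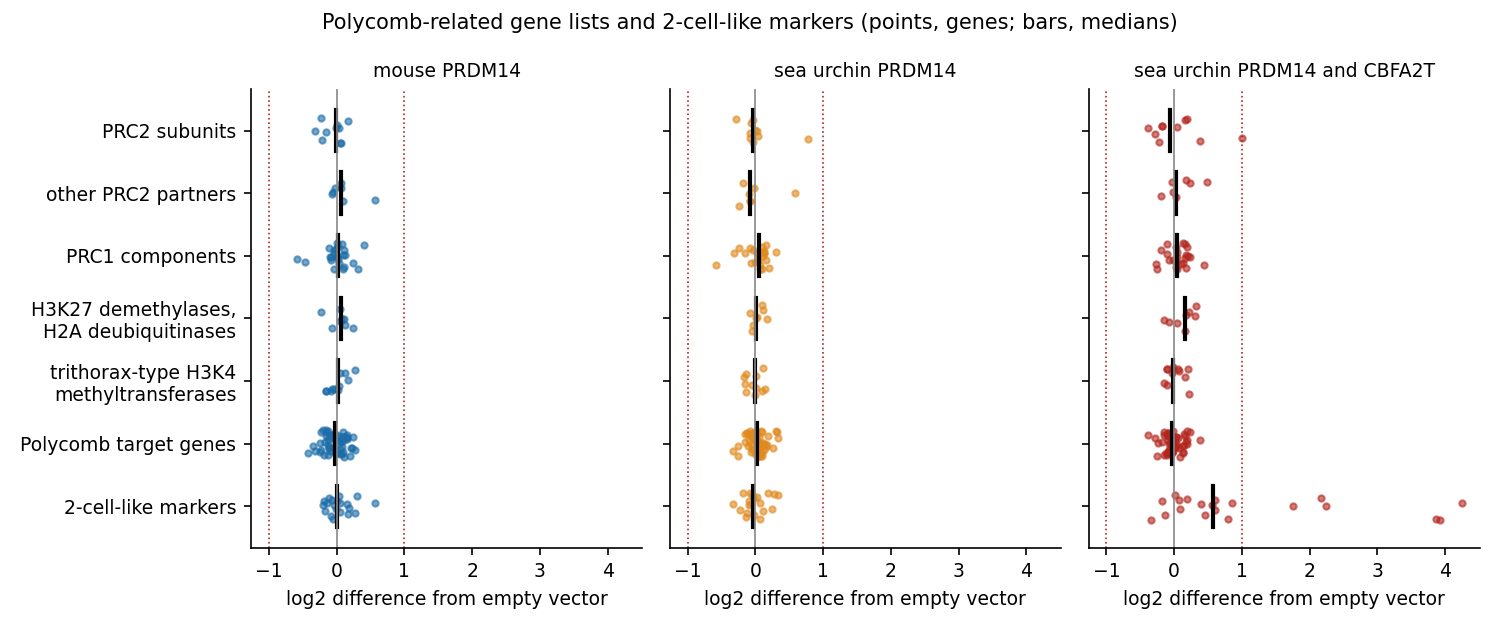
Log2 differences from the empty vector (horizontal axis) for all measured genes of 6 Polycomb-related lists and of the 2-cell-like list, 1 point per gene and a black bar at each median, for the 3 other arrays; dotted lines mark 2-fold. The Polycomb-related medians over all measured genes lie between -0.07 and 0.16, Suz12 is the single Polycomb-related point past 2-fold, and the 2-cell-like median is 0.58 with CBFA2T added.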

How the data were processed

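Total RNA of 4 samples was measured on arrays of 1 strip. The authors deposited log2 values from RMA, per the submitters' processing notes. Neither its version nor the genome build nor the set of arrays it was run on is stated in the sources used here. RMA makes the array distributions equal, so a shift shared by most genes would not show, and background pulls dim folds toward 1. Array medians lay between 4.54 and 4.55, and correlations between arrays from 0.986 to 0.989.

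Of 41345 probe sets, 23521 had 1 gene, 1814 several and 16010 none in the platform annotation. A gene took its probe set with the highest mean, and 12042 of 22180 genes reached the filter of 4.84. Chromosomes (known for 12024 genes) and neighbours came from RefSeq's GRCm38.p6 table. Differences were called by size at 2-fold and at 1.5-fold. The difference step was tested on simulated data.

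The members and lists were chosen with earlier results of these data known. Named were all members and the largest difference of each list, except the cell state marker and housekeeping lists. The 5 genes past the filter on either side of Suz12 were also named. So were the 5 nearest patterns, leaving out predicted genes and small RNAs. Alternatives were cyclic loess, the mean of all probe sets, no filter, a filter at 5.65, the 1.5-fold threshold and centring on each chromosome. The work used limma 3.58.1 in R 4.3.3, and pandas 2.3.3, numpy 2.4.6 and matplotlib 3.10.9 in Python 3.11.15.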

Additional observations from a re-analysis of the deposited data

How the results depend on the processing

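Suz12 kept its direction in all 6 comparisons after cyclic loess and after centring on its chromosome. It has 1 probe set, so the other alternatives could not change its differences and say nothing about them. Its difference from the empty vector lay between 0.71 and 0.77 with sea urchin PRDM14 and between 0.94 and 1.01 with CBFA2T added. The second was past 2-fold by little: 1.001 after cyclic loess and 0.94 when centred on its chromosome, where the count of subunit genes past 2-fold was 0. At 1.5-fold, the difference of 0.77 with sea urchin PRDM14 was past the threshold and the count was 1. Against mouse PRDM14, Suz12 stayed past 2-fold after cyclic loess and after centring. Its difference lay between 1.03 and 1.09 with sea urchin PRDM14 and between 1.25 and 1.33 with CBFA2T added. The stricter filter at 5.65 left out Phf19, and the median of the subunit genes with CBFA2T added was then 0.05. No paired analysis was possible because each group has 1 array, and no array could be left out for the same reason.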

Other observations

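Rbbp4 and Rbbp7 also belong to the Sin3, NuRD and CAF-1 complexes. Of 16 listed genes of those complexes, 15 passed the filter and 0 were 2-fold apart from the empty vector, beside 0.0830%, 0.0332% and 0.208% of all genes, with medians of 0.07 with mouse PRDM14, 0.06 with sea urchin PRDM14 and 0.17 on the CBFA2T array. The largest differences were in Mta3 with mouse PRDM14 (-0.35) and in Mta1 on both sea urchin arrays (0.37 each), both NuRD subunit genes. With CBFA2T added, 10 of the 15 genes were above the empty vector, beside 51.6% of all genes, while Rbbp4 (-0.23) and Rbbp7 (-0.28) were below it. For Rbbp4 this rests on the probe set used. Its dim probe set (0.19) and the one shared with Sync (0.10) were above the empty vector, and the mean of its own probe sets gave -0.02.

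Proliferation genes, among which several PRC2 genes are often counted, showed medians of 0.003, -0.01 and 0.02 over 19 genes in the same order of arrays. Their largest differences were in Tyms with mouse PRDM14 (-0.26) and in Top2a with sea urchin PRDM14 (0.53) and on the CBFA2T array (0.40); Top2a lies on chromosome 11, as Suz12 does.

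Markers of the cell states in the cultures had these medians against the empty vector, for mouse PRDM14, sea urchin PRDM14 and CBFA2T added. The 15 embryonic stem cell genes had 0.10, -0.07 and -0.05, the 10 primitive endoderm genes past the filter -0.14, -0.01 and -0.08, and the 12 housekeeping genes measured 0.06, -0.01 and -0.09. Of the embryonic stem cell genes, 11, 3 and 4 were above 0, beside 48.4%, 51.6% and 51.6% of all genes. On the CBFA2T array they ran from -0.67 to 0.71, with 1 gene at least 1.5-fold lower and 1 at least 1.5-fold higher. In either direction 0.822% of all genes were. Their median near 0 thus does not show that these genes were unchanged there.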
